A study of Mus musculus with 20 samples.

Results

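Described here are 42 genes of cholesterol and fatty acid synthesis in AgRP neurons, chosen by gene symbol out of 23129 named genes in the count table. They were 19 enzymes of the route from acetyl units to cholesterol (8 up to the isoprenoids and 11 from squalene on), 5 genes of the SREBP system that regulates it, 8 genes of sterol transport and export and 10 genes of fatty acid synthesis. AgRP neurons are the hypothalamic cells that make agouti-related peptide (AgRP) and neuropeptide Y and drive feeding. RNA was counted per gene in 20 libraries, each from 1000 sorted neurons of C57BL/6 mice 25 to 30 days old. All mice carried Cre recombinase under Agrp control (AgRP-Cre/+) and the Cre-dependent red reporter tdTomato (Ai9/+), by which the neurons were sorted. Wild-type (WT) mice carried only these alleles, and their conditional knockout (cKO) littermates also carried a floxed copy of the X-linked gene Phf6 (Phf6 flox/y). Phf6 encodes a chromatin-binding protein. Each genotype was studied fed and after an overnight fast, with food removed at 5 pm the day before and water left, which gave 4 groups of 5 libraries. The comparisons ask how fasting changed these genes in each genotype, how the genotypes differed in each feeding state, and whether the fasting response differed between genotypes.

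Cholesterol is built from acetyl-CoA through mevalonate, the isoprenoid farnesyl diphosphate, squalene and lanosterol. Most enzymes of the route are transcribed under SREBP-2, a membrane-bound factor that is carried by SCAP to the Golgi and cleaved there when membrane sterol is low, and that INSIG proteins hold back when sterol is high. SREBP-1 acts in the same way mainly on genes of fatty acid synthesis, while the oxysterol-sensing liver X receptors (LXRs) switch on sterol export genes such as Abca1 and Abcg1. Neurons depend in part on cholesterol delivered by glia, and enzymes of sterol and lipid synthesis are also abundant in oligodendrocytes, which build myelin.

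SREBP-2 binds sterol response elements next to sites of the CCAAT-binding factor NF-Y, so the promoters of the sterol enzymes were read for both. RefSeq promoters on GRCm38.p6, running from 250 bases before to 50 bases after the gene start, were found for 33 of the 42 members. The 5 letters CCAAT, on either strand, stood in 15 of 16 sterol enzyme promoters (93.8%), in 4 of 5 of the SREBP regulators, in 2 of 5 of sterol transport and in 4 of 7 of fatty acid synthesis, against 42.7% of 10082 tested genes with a promoter. The sterol enzyme promoter without it was that of Acat2. The consensus element TCACNCCAC stood in 1 member promoter, that of Hmgcs1, against 1.36% of tested genes. The GC box GGGCGG, bound by Sp1, stood in 14 of 16 sterol enzyme promoters (87.5%) against 68.7%. These are matches of letters in a window and not measured binding.

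The following stretches, with their positions in brackets, end just before the gene start. Of the members whose fasting response passed the test of a difference between genotypes, Hmgcs1 (chr13:119690201-119690350, plus strand) had the largest difference. The response of Sc5d (chr9:42264301-42264400, minus strand) passed the test in 1 genotype with all libraries. Mvd (chr8:122443423-122443522, minus strand) was the sterol enzyme that was lower in fed cKO neurons. For Nsdhl (chrX:72918391-72918520, plus strand) the fold changes on fasting were close in both genotypes. Mvk (chr5:114444139-114444268, plus strand) has 4 matches, and Ebp (chrX:8193513-8193612, minus strand) is a sterol enzyme that did not pass in either genotype. Capitals mark CCAAT or its reverse complement and, in Hmgcs1, TCACNCCAC, none of which overlap. All are written in the direction of transcription.
Hmgcs1: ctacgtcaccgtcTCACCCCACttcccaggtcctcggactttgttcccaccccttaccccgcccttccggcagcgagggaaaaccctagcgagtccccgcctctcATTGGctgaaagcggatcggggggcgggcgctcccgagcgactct
Sc5d: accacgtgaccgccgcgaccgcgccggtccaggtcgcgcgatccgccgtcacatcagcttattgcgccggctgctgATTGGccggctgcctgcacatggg
Mvd: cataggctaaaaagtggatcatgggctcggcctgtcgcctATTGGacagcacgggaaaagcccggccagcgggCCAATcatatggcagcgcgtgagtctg
Nsdhl: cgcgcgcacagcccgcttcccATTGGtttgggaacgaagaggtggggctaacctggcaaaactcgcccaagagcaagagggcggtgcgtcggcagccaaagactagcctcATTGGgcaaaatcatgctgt
Mvk: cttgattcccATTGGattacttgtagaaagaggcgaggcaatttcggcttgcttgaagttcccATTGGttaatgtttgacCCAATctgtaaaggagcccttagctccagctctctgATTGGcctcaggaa
Ebp: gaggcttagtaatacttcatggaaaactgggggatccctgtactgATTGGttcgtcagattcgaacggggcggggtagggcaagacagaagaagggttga
The CCAAT match lies on the opposite strand in Hmgcs1, Sc5d, Nsdhl and Ebp and on both strands in Mvd and Mvk. Enzymes that fell with fasting and Ebp, which did not pass the test in either genotype, both carried it.

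Total counts ran from 10604977 to 13573524 in fed and from 8494499 to 10000278 in fasted libraries, and a count of 0 allowed up to 3 counts or 0.221 to 0.353 CPM, which covers counting error only. Levels are given as CPM, the count scaled to a common library total by edgeR, and per kb of exon where genes are compared with each other. Phf6 stood at 276 ± 10.2 CPM (mean ± SD, n = 5) in fed WT, 128 ± 11.02 in fasted WT, 70.7 ± 4.85 in fed cKO and 61.2 ± 6.90 in fasted cKO neurons. The sources used here do not name the floxed exons, so the reads left in cKO could lie outside the deleted part. Agrp (4259 to 4749.9 CPM in fed WT) and Npy (15645 to 17389 CPM) marked every library as AgRP neurons, and the defining markers Gfap, Aqp4, Mog and Cx3cr1 of glia stayed at or below 1.29 CPM. Within the fasted groups replicates 1 and 2 stood apart from replicates 3 to 5: the root mean square difference in log2 CPM was 0.617 to 0.674 between these sets in WT and 0.589 to 0.629 in cKO, against 0.495 to 0.526 and 0.507 to 0.571 within them. The labels do not say that replicates came from separate mice, so p-values measure the spread between these libraries. In bulk RNA, fewer cells of a type and less RNA per cell cannot be told apart.

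**Figure D1:**
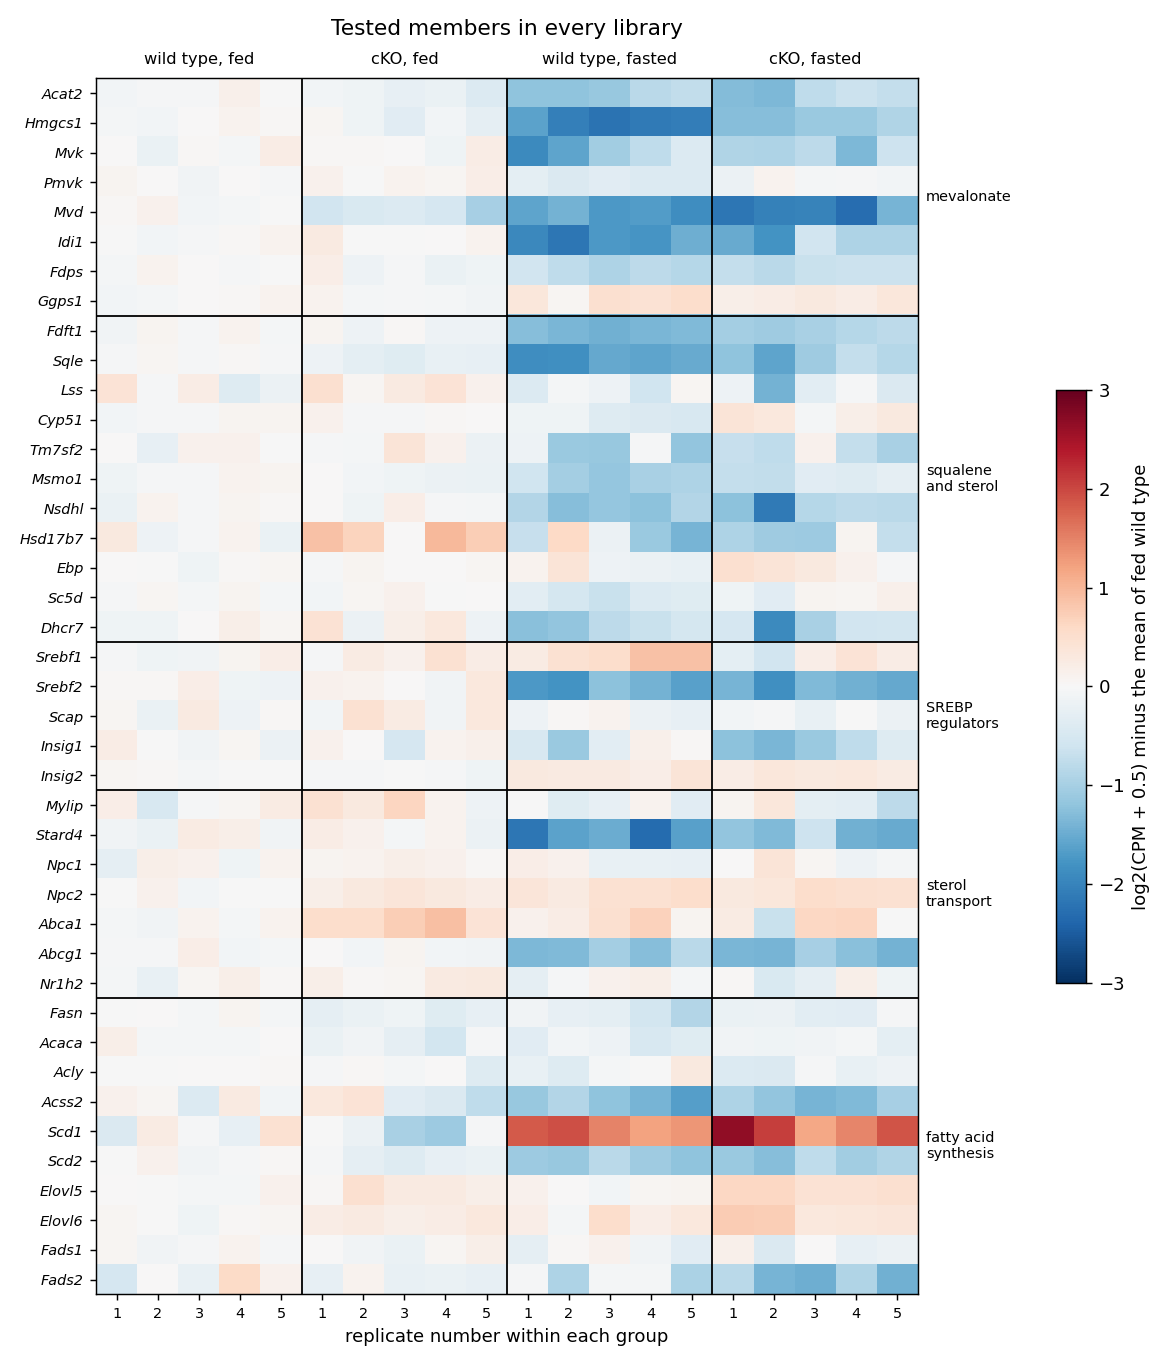
Difference in log2(CPM + 0.5) from the mean of fed wild type for the 41 tested members (rows, by role) in the 20 libraries (columns, by group and replicate number). Most sterol enzymes are blue in both fasted groups, Scd1 is red there, and few rows differ in colour between the fed groups.

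Fasting lowered most of the sterol enzymes in WT neurons. Of the 19 enzymes, 15 fell, 1 rose and 3 did not pass the test (edgeR quasi-likelihood test, Benjamini-Hochberg adjusted p under 0.05 over 13237 genes), and their median log2 fold change was -0.88 against -0.03 over all tested genes. Of all 41 tested members 22 fell and 6 rose. Fasting changed a large share of all genes, with 60.9% called, of which 31.3% of tested genes fell and 29.6% rose, so a call by itself is common in this comparison. In the following, changes are log2 fold changes ± SE with the edgeR adjusted p, with 5 libraries per group.

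The mevalonate arm held the deepest falls. Hmgcs1 (chr13:119690379-119708260), HMG-CoA synthase, which makes the precursor of mevalonate, read 175, 172, 181, 194 and 184 CPM in replicates 1 to 5 of fed WT and 59.6, 43.3, 38.4, 41.6 and 42.5 CPM in fasted WT. Every fasted library lay far below every fed one, and the highest fasted value was replicate 1. The fall was 4.02-fold (-2.01 ± 0.10, adjusted p = 5.81e-16). Idi1, the isomerase of isopentenyl diphosphate, went from 40.1, 38.3, 39.4, 41.98 and 43.9 CPM fed to 10.3, 8.65, 12.04, 11.6 and 14.3 CPM fasted, with no overlap of the libraries (-1.83 ± 0.16, adjusted p = 6.38e-11). Mvd, mevalonate diphosphate decarboxylase, went from 25.2, 26.8, 23.3, 23.6 and 24.3 CPM to 7.83, 8.91, 7.05, 7.32 and 6.40 CPM, also without overlap (-1.72 ± 0.15, adjusted p = 1.01e-10). These were the largest falls among the 19 enzymes, after which came Sqle.

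The other enzymes of this arm moved less. The kinase Mvk, which phosphorylates mevalonate, had a low level of 6.82 to 9.32 CPM fed and 1.75 to 5.85 CPM fasted (-1.14 ± 0.22, adjusted p = 7.74e-05). Acat2, a cytosolic thiolase that joins acetyl units, fell from 107 ± 6.70 to 52.7 ± 8.498 CPM (-1.01 ± 0.12, adjusted p = 1.58e-08). Fdps, farnesyl diphosphate synthase, fell from 131, 145, 137, 133 and 134 CPM to 90.8, 80.2, 71.3, 79.2 and 74.7 CPM (-0.78 ± 0.07, adjusted p = 3.91e-10), and it shares 26.7% of its exon bases with the gene model Gm43738 on the same strand, so its reads are uncertain. Pmvk, the second kinase of the arm and the member with the highest level per length (86.2 CPM per kb in fed WT), fell by a small amount (-0.38 ± 0.06, adjusted p = 3.91e-06). Ggps1, which diverts farnesyl diphosphate to geranylgeranyl diphosphate for protein prenylation and so lies off the route to cholesterol, was the 1 enzyme that rose, from 75.7 ± 4.18 to 98.3 ± 11.95 CPM (0.38 ± 0.07, adjusted p = 6.36e-05).

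Beyond the isoprenoids, the first squalene steps fell most. Sqle (chr15:59315077-59331192), squalene epoxidase and a known control point of the pathway, read 90.6, 95.4, 90.2, 94.5 and 90.5 CPM in fed WT and 25.01, 25.4, 31.2, 30.5 and 32.2 CPM in fasted WT. The fed libraries were tight and all lay above the fasted ones, a 3.19-fold fall (-1.67 ± 0.11, adjusted p = 2.12e-13). Fdft1 (chr14:63145150-63179578), squalene synthase and the first step committed to sterols, read 263, 296, 273, 303 and 271 CPM fed and 116, 109, 103, 109 and 112 CPM fasted (-1.36 ± 0.07, adjusted p = 4.51e-16). Overlaps with genes on the other strand, namely Ctsb over 18.3% of the Fdft1 exon bases and the gene model Gm48342 over 12.1% of those of Hmgcs1, leave part of these reads uncertain, since the kit does not mark strand.

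The later sterol steps were uneven. Nsdhl, a sterol dehydrogenase of C4 demethylation, fell from 44.3, 54.3, 49.5, 53.7 and 51.3 CPM to 27.2, 20.7, 22.3, 21.1 and 27.3 CPM without overlap (-1.09 ± 0.15, adjusted p = 3.87e-07). Msmo1, the C4 methyl oxidase just before it, fell from 223, 237, 239, 262 and 257 CPM to 159.8, 119.6, 108, 124 and 128 CPM, and its highest fasted value was again replicate 1 (-0.93 ± 0.09, adjusted p = 8.41e-10). Dhcr7, which completes cholesterol from 7-dehydrocholesterol, fell from 23.2 ± 2.18 to 12.5 ± 2.88 CPM (-0.88 ± 0.19, adjusted p = 0.000195). Smaller falls were found for Sc5d, a desaturase of the last steps (-0.46 ± 0.08, adjusted p = 1.51e-05), and for Cyp51, lanosterol demethylase (-0.30 ± 0.08, adjusted p = 0.00226). Tm7sf2, a sterol C14 reductase at 2.43 to 5.97 CPM in fasted WT, fell (-0.69 ± 0.25, adjusted p = 0.02), but the call was lost without replicate 2, 3 or 5 of fasted WT (adjusted p = 0.0551, 0.0637 and 0.0619) or with GC and length offsets (adjusted p = 0.101). The isomerase Ebp stayed within 46.7 to 53.5 CPM fed and 43.4 to 67.3 CPM fasted, and lanosterol synthase Lss and the reductase Hsd17b7, both under 12 CPM in WT, did not pass (-0.26 ± 0.21, adjusted p = 0.28 and -0.45 ± 0.32, adjusted p = 0.231). Ebp was called higher with fasted replicates 1 and 2 alone (0.25, adjusted p = 0.0174) and lower with replicates 3 to 5 alone (-0.18, adjusted p = 0.0448). Hsd17b7 was 0.06 with fasted replicates 1 and 2 alone, and it passed with replicates 3 to 5 alone (-0.93, adjusted p = 0.012) and without replicate 2 of fasted WT (-0.90, adjusted p = 0.0127).

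**Figure D2:**
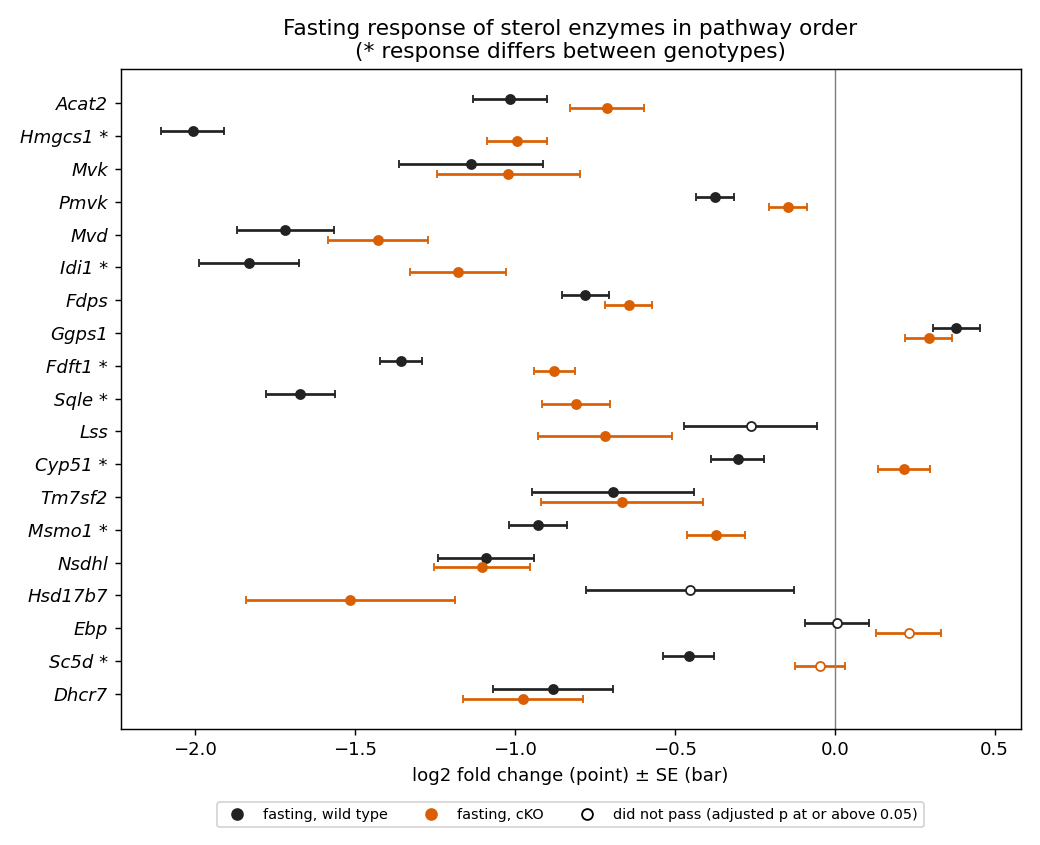
Log2 fold change on fasting (x axis, points, ± SE as bars, 5 libraries per group) of the 19 sterol enzymes in pathway order (y axis) in wild type and cKO. Hmgcs1 lies at -2.01 in wild type and -0.99 in cKO, while Nsdhl lies at -1.09 and -1.10.

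In cKO neurons the same number of sterol enzymes fell, 15 of 19, with 2 that rose and 2 that did not pass, and a median log2 fold change of -0.72 against -0.03 over all tested genes. Of the 41 members 23 fell and 7 rose, beside 53.1% of all tested genes called (27.0% fallen and 26.0% risen). Hmgcs1 read 189, 166, 142, 171 and 151 CPM in fed cKO and 74.1, 73.9, 83.3, 82.8 and 97.1 CPM in fasted cKO. The fall was 1.99-fold (-0.99 ± 0.09, adjusted p = 7.43e-10). The lowest fasted cKO library lay above the highest fasted WT library. Sqle read 82.8, 75.1, 71.8, 79.2 and 78.1 CPM in fed and 39.5, 30.4, 43.8, 56.3 and 50.4 CPM in fasted cKO (-0.81 ± 0.11, adjusted p = 2.3e-07), and replicate 2 of fasted cKO reached down into the range of fasted WT. Fdft1 read 295, 253, 289, 252 and 252 CPM in fed and 139, 133, 142, 154 and 162 CPM in fasted cKO (-0.88 ± 0.06, adjusted p = 6.32e-12), and no fasted cKO library overlapped fasted WT.

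Other enzymes also fell in cKO. Nsdhl read 50.6, 46.2, 58.4, 49.3 and 48.7 CPM in fed and 21.3, 11.1, 27.5, 29.2 and 28.4 CPM in fasted cKO, with the lowest value in replicate 2 (-1.10 ± 0.15, adjusted p = 5.16e-07). Mvd read 16.3, 17.9, 18.5, 17.1 and 11.996 CPM in fed and 5.13, 5.69, 5.79, 4.65 and 9.07 CPM in fasted cKO (-1.43 ± 0.16, adjusted p = 1.21e-08). Mvk (-1.02 ± 0.22, adjusted p = 0.000332), Acat2 (-0.71 ± 0.12, adjusted p = 7.75e-06) and Fdps (-0.64 ± 0.07, adjusted p = 2.38e-08) fell too. Dhcr7 read 31.5, 20.3, 26.1, 28.8 and 20.8 CPM in fed and 16.3, 5.82, 11.6, 15.4 and 15.5 CPM in fasted cKO, with replicate 2 lowest (-0.97 ± 0.19, adjusted p = 7.68e-05), and Ggps1 rose (0.29 ± 0.07, adjusted p = 0.00144). Lss (-0.72 ± 0.21, adjusted p = 0.00511) and Hsd17b7 (-1.51 ± 0.33, adjusted p = 0.000295) fell in cKO and had not passed in WT with all libraries. Their interactions did not pass (-0.45 ± 0.30, adjusted p = 0.307 and -1.06 ± 0.46, adjusted p = 0.115). That of Hsd17b7 passed without replicate 4 of fasted cKO (adjusted p = 0.036) and with fasted replicates 1 and 2 alone (-1.98, adjusted p = 0.00466). Ebp did not pass in cKO (0.23 ± 0.10, adjusted p = 0.0541), but it passed under the DESeq2 Wald test (adjusted p = 0.0423), when only the cKO groups entered the fit (adjusted p = 0.0257) and without replicate 1, 2, 4 or 5 of fasted WT or 4 or 5 of fasted cKO (adjusted p from 0.0144 to 0.0489). It also passed with DESeq2 size factors, with a replicate block and with fasted replicates 1 and 2 alone (adjusted p from 0.000198 to 0.0456). The fall of Pmvk was small (-0.15 ± 0.06, adjusted p = 0.0386), and it lost its call without replicate 1, 3, 4 or 5 of fasted cKO or 1, 3 or 5 of fed cKO (adjusted p from 0.0554 to 0.137). Tm7sf2 fell (-0.66 ± 0.25, adjusted p = 0.0289), with a call lost without replicate 1, 2, 4 or 5 of fasted cKO or 3 of fed cKO (adjusted p from 0.0597 to 0.0835) and with GC and length offsets (adjusted p = 0.191). It shares 12.1% of its exon bases with Vps51 on the same strand.

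With all libraries Cyp51 moved in opposite directions in the 2 genotypes. In WT it read 78.1, 79.9, 79.7, 86.7 and 86.7 CPM fed and 75.5, 75.6, 62.8, 60.7 and 58.7 CPM fasted, with all fasted values below all fed ones. In cKO it read 89.8, 80.7, 79.5, 83.9 and 82.7 CPM fed and 108, 103, 78.6, 93.4 and 101 CPM fasted, with 4 of 5 fasted values above all fed ones and replicate 3 the exception. The rise in cKO (0.22 ± 0.08, adjusted p = 0.027) lost its call without replicate 2 or 3 of fed cKO or 1, 2 or 5 of fasted cKO (adjusted p from 0.0564 to 0.0775), under upper-quartile normalization (adjusted p = 0.0609) and with GC and length offsets (adjusted p = 0.0502). That rise was also lost with fasted replicates 3 to 5 alone (0.13, adjusted p = 0.127). The fall in WT was lost with fasted replicates 1 and 2 alone (-0.14, adjusted p = 0.117). In neither set of fasted libraries did both changes pass.

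The difference between the 2 fasting responses was tested as the interaction of genotype with fasting, in which a positive value means a response that was less negative, or more positive, in cKO. Of the 19 sterol enzymes 7 had a positive interaction and 12 did not pass, with a median of 0.23 against -0.03 over all genes. Of the 41 members 7 were positive and 3 negative, beside 17.3% of all tested genes called (8.87% positive and 8.44% negative). The negative ones were Srebf1, Npc2 and Abca1, of which Npc2 and Abca1 lost their calls together without replicate 3 of fed WT, 3 of fed cKO or 1 of fasted cKO. The largest positive one was that of Hmgcs1 (1.02 ± 0.13, adjusted p = 5.61e-06), followed by Sqle (0.86 ± 0.15, adjusted p = 0.00019), Idi1 (0.65 ± 0.22, adjusted p = 0.0361), Msmo1 (0.56 ± 0.13, adjusted p = 0.00282), Cyp51 (0.52 ± 0.12, adjusted p = 0.00227), Fdft1 (0.48 ± 0.09, adjusted p = 0.000486) and Sc5d (0.41 ± 0.11, adjusted p = 0.0107). These 7 enzymes are spread over the route, from HMG-CoA synthesis through squalene to the last desaturation. For Nsdhl the interaction was near 0 (-0.01 ± 0.21, adjusted p = 0.979), and Fdps (0.14 ± 0.10, adjusted p = 0.392) and Dhcr7 (-0.09 ± 0.27, adjusted p = 0.85) did not pass either. Pmvk (0.23 ± 0.08, adjusted p = 0.0589) passed under the DESeq2 Wald test (adjusted p = 0.0398), with GC and length offsets (adjusted p = 0.0175), with fasted replicates 3 to 5 alone (adjusted p = 0.0294) and without replicate 3 of fed WT, 5 of fed cKO, 1 of fasted WT or 1 of fasted cKO (adjusted p from 0.0284 to 0.0472).

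The division of the fasted libraries bears on some of these. With fasted replicates 1 and 2 alone, the interaction still passed for Hmgcs1 (0.68), Sqle (0.74), Cyp51 (0.48) and Fdft1 (0.36), and it did not pass for Idi1 (0.35, adjusted p = 0.242), Msmo1 (0.19, adjusted p = 0.255) and Sc5d (0.18, adjusted p = 0.279). With replicates 3 to 5 alone, 12 members had a positive interaction, beside 13.3% of all genes tested in that fit, with Hmgcs1 at 1.25 and Msmo1 at 0.79. Idi1 read 49.4, 40.7, 40.2, 41.2 and 43.7 CPM in fed and 13.9, 11.4, 27.1, 21.1 and 21.1 CPM in fasted cKO, so that replicates 1 and 2 lay within the range of fasted WT and replicates 3 to 5 above it. Its interaction was lost without any 1 of 10 libraries (replicates 4 and 5 of fed WT, 2 to 5 of fed cKO, 2 of fasted WT and 3 to 5 of fasted cKO, adjusted p from 0.0501 to 0.0926), although Idi1 fell on fasting in cKO by itself (-1.18 ± 0.15, adjusted p = 1.63e-07). Msmo1 read 247, 229, 222, 214 and 213 CPM in fed and 147, 145, 191, 185 and 202 CPM in fasted cKO (-0.37 ± 0.09, adjusted p = 0.000936), again with replicates 1 and 2 lower. Sc5d read 97.7, 108, 113, 103 and 105 CPM in fed and 94.3, 82.3, 110.2, 108 and 116 CPM in fasted cKO, with overlap (-0.05 ± 0.08, adjusted p = 0.649; -0.26, adjusted p = 0.00562 with fasted replicates 1 and 2 alone), against 101, 108, 99.4, 110.0 and 100.3 CPM fed and 83.2, 71.8, 65.4, 77.6 and 79.9 CPM fasted in WT.

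Over all tested genes 31.3% fell on fasting in WT and 27.0% in cKO. Of 9 markers of oligodendrocytes only 4 were tested, and 3 of these fell in WT and 2 in cKO. Their summed level was 90.6 to 105 CPM in fed WT, 49.2 to 73.6 in fasted WT, and in cKO 82.6 to 107 when fed against 49.5 to 65.5 when fasted, with Cldn11 at 0 in both fasted groups and Mog at or below 1.04 CPM. Their part in the fall of the sterol enzymes was not tested.

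**Figure D3:**
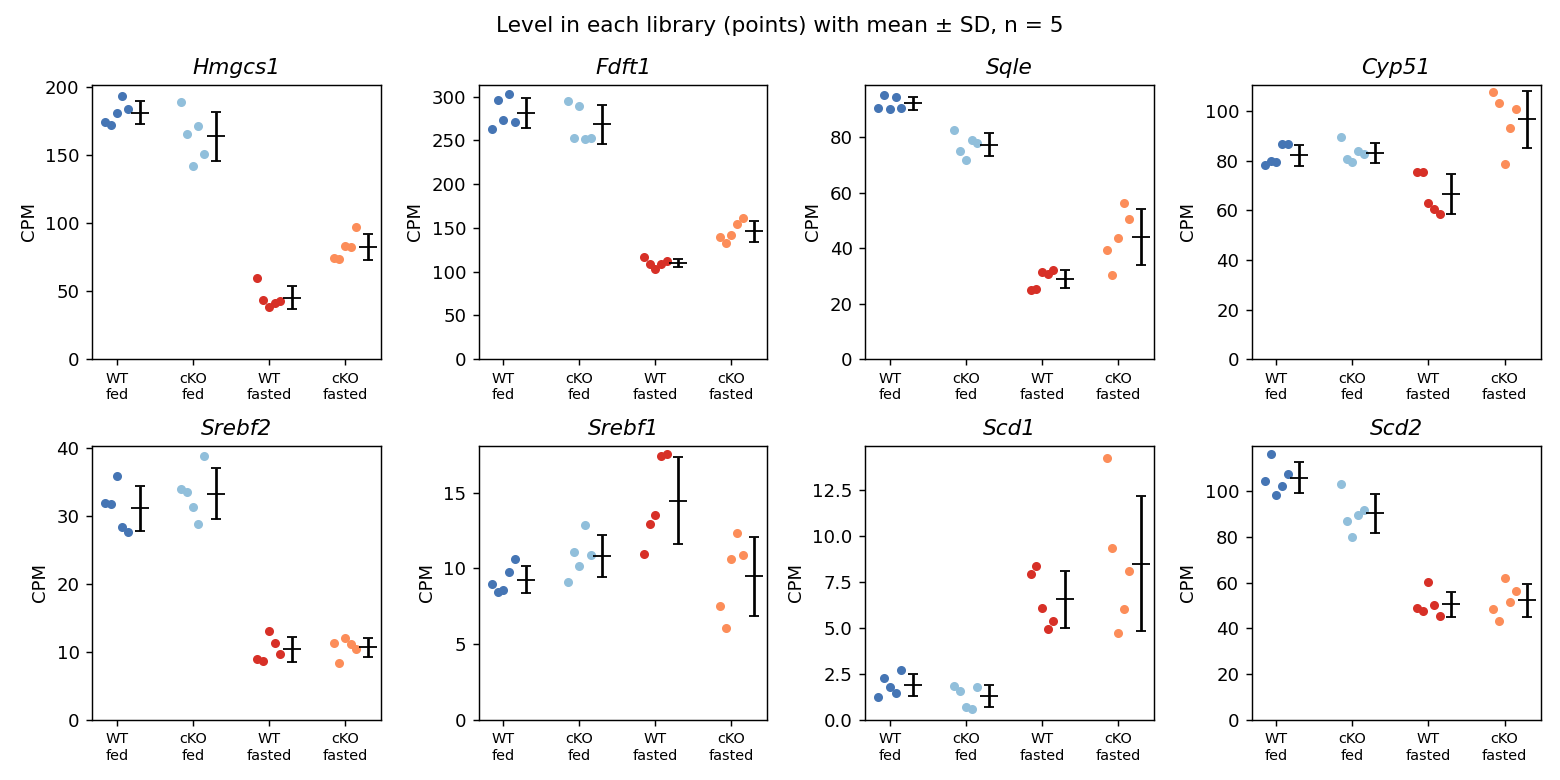
CPM (y axis, from 0) of 8 members in each library (points, 5 per group) with the mean ± SD beside them. Fasted cKO libraries lie above fasted wild type for Hmgcs1 and Fdft1, while both fasted groups share a range for Srebf2.

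Among the regulators, Srebf2 (chr15:82147181-82205379), which encodes SREBP-2, fell in both genotypes. It read 31.9, 31.8, 35.9, 28.4 and 27.6 CPM in fed and 9.001, 8.65, 13.0, 11.4 and 9.71 CPM in fasted WT (-1.58 ± 0.12, adjusted p = 1.22e-11). The cKO values were 33.9, 33.6, 31.3, 28.9 and 38.8 CPM fed and 11.4, 8.35, 12.1, 11.1 and 10.4 CPM fasted (-1.64 ± 0.13, adjusted p = 1.38e-11). All fasted libraries lay far below all fed ones, and the ranges of both fasted groups overlapped. The interaction did not pass for Srebf2 (-0.06 ± 0.18, adjusted p = 0.859), whereas it passed for Hmgcs1, a known SREBP-2 target.

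Srebf1 (chr11:60199089-60222581), which encodes SREBP-1, rose on fasting in WT. It read 8.97, 8.47, 8.56, 9.74 and 10.6 CPM in fed and 10.99, 12.9, 13.56, 17.5 and 17.5 CPM in fasted WT, where every fasted value lay above every fed one (0.65 ± 0.17, adjusted p = 0.00146). In cKO it read 9.08, 11.1, 10.2, 12.9 and 10.9 CPM fed and 7.502, 6.07, 10.7, 12.4 and 10.9 CPM fasted, with overlap and low values in replicates 1 and 2 (-0.18 ± 0.17, adjusted p = 0.384). With fasted replicates 1 and 2 alone it fell in cKO (-0.67, adjusted p = 0.00638). The interaction passed (-0.83 ± 0.24, adjusted p = 0.0155), and the rise in WT was lost with fasted replicates 1 and 2 alone (0.35, adjusted p = 0.112).

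The INSIG genes, whose proteins retain SCAP and SREBP in the endoplasmic reticulum, went separate ways. Insig2 rose in WT (0.28 ± 0.05, adjusted p = 1.7e-05) and in cKO (0.34 ± 0.05, adjusted p = 1.72e-06), reading 185, 183, 173, 177 and 178 CPM in fed and 220.1, 217, 215, 206 and 233 CPM in fasted WT, with fed cKO at 163 to 178 CPM, fasted cKO at 208 to 227 CPM and no overlap in either genotype. Insig1, itself a known SREBP target, read 29.1, 24.6, 22.9, 25.6 and 21.9 CPM in fed and 17.5, 11.2, 19.8, 27.6 and 25.3 CPM in fasted WT (-0.29 ± 0.18, adjusted p = 0.178). With fasted replicates 1 and 2 alone it fell in WT (-0.80, adjusted p = 0.00025). In cKO it read 26.9, 24.8, 17.4, 26.7 and 27.3 CPM fed and 10.3, 9.23, 11.1, 14.3 and 18.6 CPM fasted (-0.95 ± 0.19, adjusted p = 0.000123), and the interaction did not pass (-0.66 ± 0.26, adjusted p = 0.0815), so its response is not shown to differ between genotypes. The interaction passed without replicate 3 of fed cKO, 2 of fasted WT or 5 of fasted cKO (adjusted p from 0.0136 to 0.0448) and with fasted replicates 3 to 5 alone (adjusted p = 0.0108). Scap, the escort of SREBP, had a fall in cKO (-0.29 ± 0.12, adjusted p = 0.047) that was lost without any 1 of 9 libraries (replicates 1 and 5 of fed WT, 2, 3 and 5 of fed cKO and 1, 2, 3 and 5 of fasted cKO, adjusted p from 0.0525 to 0.157), and was -0.02 with GC and length offsets. It shares 13.2% of its exon bases with the gene model 5830462I19Rik on the opposite strand.

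Of the 8 genes of sterol transport and export, 7 were tested, and 2 fell and 1 rose in each genotype on fasting. Over all tested genes 31.3% fell and 29.6% rose in WT, and 27.0% fell and 26.0% rose in cKO. The medians were -0.08 in WT and -0.39 in cKO, against -0.03 over all tested genes in each. Stard4, a soluble carrier of cholesterol between membranes and a known SREBP-2 target, read 13.60, 12.8, 17.5, 16.9 and 13.7 CPM in fed and 2.92, 4.52, 4.99, 2.59 and 4.41 CPM in fasted WT (-1.94 ± 0.19, adjusted p = 8.24e-10). The cKO libraries read 17.3, 16.2, 14.2, 16.0 and 13.0 CPM fed and 6.25, 5.56, 9.39, 5.11 and 4.89 CPM fasted (-1.29 ± 0.18, adjusted p = 6.76e-07), with an interaction that did not pass (0.64 ± 0.26, adjusted p = 0.0896). All fasted libraries of both genotypes lay below all fed ones.

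Abcg1, a sterol exporter switched on by LXRs, fell in WT from 32.2, 32.3, 37.8, 31.0 and 31.9 CPM to 12.6, 12.8, 15.9, 13.3 and 18.5 CPM (-1.17 ± 0.11, adjusted p = 6.11e-10). In cKO it fell from 33.3, 31.4, 35.1, 31.2 and 30.6 CPM to 12.5, 12.1, 16.3, 13.5 and 11.9 CPM (-1.28 ± 0.11, adjusted p = 2.68e-10). Abca1, an exporter under the same receptors, did not pass on fasting in either genotype (0.35 ± 0.18, adjusted p = 0.0948 in WT and -0.39 ± 0.18, adjusted p = 0.0657 in cKO). In WT it passed upward when only the WT groups entered the fit (adjusted p = 0.0389), with fasted replicates 3 to 5 alone (adjusted p = 0.0151) and without replicate 2 of fasted cKO (adjusted p = 0.0439). In cKO it passed downward with fasted replicates 1 and 2 alone (-0.79, adjusted p = 0.0011), without replicate 3 or 4 of fasted cKO (adjusted p = 0.0243 and 0.0208), under upper-quartile normalization (adjusted p = 0.0463) and with a replicate block (adjusted p = 0.0218). Its interaction was negative (-0.74 ± 0.25, adjusted p = 0.0428) and was lost without any 1 of 14 libraries (all 5 of fed WT, replicates 1 to 4 of fed cKO, 3 and 4 of fasted WT and 1, 2 and 5 of fasted cKO, adjusted p from 0.0501 to 0.0908). Abca1 read 10.3, 9.91, 11.5, 10.3 and 11.6 CPM in fed WT, 11.7, 12.5, 15.1, 17.5 and 11.4 CPM in fasted WT and 12.8, 6.58, 16.8, 17.0 and 10.6 CPM in fasted cKO, where replicate 2 was lowest.

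Npc2, the lysosomal protein that hands cholesterol to NPC1, rose on fasting in WT from 178, 194, 170.3, 178 and 176 CPM to 229, 217, 244, 248 and 259.9 CPM (0.42 ± 0.06, adjusted p = 7.05e-07). In cKO it read 219, 227, 259.7, 249 and 245 CPM fasted, and the rise was smaller (0.15 ± 0.06, adjusted p = 0.0356) and was lost without replicate 1 or 5 of fed cKO or 3, 4 or 5 of fasted cKO (adjusted p from 0.064 to 0.111). With fasted replicates 1 and 2 alone the rise in cKO was 0.05 (adjusted p = 0.543). It was also lost under upper-quartile normalization (adjusted p = 0.121) and with no filter on low counts (adjusted p = 0.0863). The interaction (-0.27 ± 0.08, adjusted p = 0.0262) was lost without replicate 3 of fed WT, 3 of fed cKO, 5 of fasted WT or 1 of fasted cKO (adjusted p from 0.0559 to 0.0646). Npc1, the lysosomal membrane partner of NPC2, stayed within 26.4 to 35.9 CPM in fed and 26.7 to 36.9 CPM in fasted WT and did not pass in any comparison with all libraries (with fasted replicates 3 to 5 alone it fell in WT, -0.25, adjusted p = 0.0356). The LXR gene Nr1h2 and Mylip, which encodes a ligase that removes lipoprotein receptors, did not pass either. Nr1h2 was called higher on fasting in WT with GC and length offsets (0.41, adjusted p = 0.00303). In cKO it was called lower under upper-quartile normalization (adjusted p = 0.0356), with a replicate block (adjusted p = 0.0423) and without replicate 4 of fasted cKO (adjusted p = 0.0213). Mylip was called lower on fasting in cKO without replicate 2 of fasted cKO (-0.70, adjusted p = 0.0436) and with fasted replicates 3 to 5 alone (-0.88, adjusted p = 0.0252). The LXR gene Nr1h3 was the member not tested, at 0 to 1.13 CPM over all libraries.

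Fatty acid synthesis had no common direction on fasting. In WT 4 of its 10 genes fell, 2 rose and 4 did not pass (median -0.20), beside 31.3% of all tested genes fallen and 29.6% risen. In cKO 3 fell, 3 rose and 4 did not pass (median -0.04), beside 27.0% fallen and 26.0% risen. The stearoyl-CoA desaturases, which make monounsaturated fatty acids, moved in opposite directions. Scd1 (chr19:44394455-44407879) read 1.24, 2.30, 1.78, 1.48 and 2.73 CPM in fed and 7.95, 8.40, 6.07, 4.96 and 5.41 CPM in fasted WT, a 3.43-fold rise without overlap (1.78 ± 0.31, adjusted p = 1.57e-05). Values in cKO were 1.83, 1.56, 0.701, 0.597 and 1.80 CPM fed and 14.3, 9.36, 4.75, 6.01 and 8.12 CPM fasted, with the highest value in replicate 1 (2.69 ± 0.32, adjusted p = 6e-08). Its interaction did not pass (0.92 ± 0.45, adjusted p = 0.161).

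Scd2 (chr19:44293674-44306864), the desaturase that is common in brain, was far more abundant in fed WT, at 19.4 CPM per kb against 0.390 for Scd1. It read 104, 116, 98.4, 102 and 108 CPM in fed and 49.1, 47.4, 60.1, 50.001 and 45.6 CPM in fasted WT (-1.07 ± 0.09, adjusted p = 3.83e-11). Its cKO values were 103, 87.0, 80.1, 89.5 and 91.6 CPM fed and 48.3, 43.1, 62.1, 51.4 and 56.1 CPM fasted (-0.79 ± 0.09, adjusted p = 2.29e-08). Both genes are close paralogs, so the split of reads between them is uncertain, and Scd1 stayed the lower one in fasted neurons, at 1.34 against 9.23 CPM per kb in WT.

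Of the enzymes that supply and condense acetyl units, Acss2, which makes acetyl-CoA from acetate, fell in WT from 16.2, 15.4, 10.99, 17.9 and 13.98 CPM to 6.43, 7.75, 6.07, 5.29 and 4.30 CPM (-1.32 ± 0.21, adjusted p = 3.46e-06). In cKO it fell from 18.5, 19.66, 11.6, 10.8 and 8.46 CPM, with replicates 1 and 2 high, to 7.502, 6.20, 5.33, 5.56 and 7.16 CPM (-1.12 ± 0.21, adjusted p = 5e-05). Acly, which makes acetyl-CoA from citrate, did not pass in any comparison with all libraries and read 136 to 140.3 CPM in fed and 105 to 169 CPM in fasted WT. With fasted replicates 1 and 2 alone it fell in WT (-0.32, adjusted p = 0.00108) and in cKO (-0.34, adjusted p = 0.000726). Acly also fell in cKO without replicate 5 of fed cKO (adjusted p = 0.0444). It was lower in fasted cKO than in fasted WT without replicate 2 of fasted WT (-0.26, adjusted p = 0.0422) and with fasted replicates 3 to 5 alone (-0.23, adjusted p = 0.0439). Fasn, fatty acid synthase, read 36.5, 37.0, 35.2, 38.8 and 35.3 CPM in fed and 34.0, 30.7, 29.9, 24.9 and 19.5 CPM in fasted WT, where replicates 4 and 5 were lowest (-0.40 ± 0.11, adjusted p = 0.0023). With GC and length offsets this change was -0.03 (adjusted p = 0.849), and with fasted replicates 1 and 2 alone -0.19 (adjusted p = 0.131). Acaca, the carboxylase that makes malonyl-CoA, fell in WT by a small amount (-0.29 ± 0.11, adjusted p = 0.0218), and the call was lost without replicate 1 of fed WT (adjusted p = 0.0687) or 4 of fasted WT (adjusted p = 0.0677). That call was also lost with GC and length offsets (-0.22, adjusted p = 0.0656) and with fasted replicates 1 and 2 alone (-0.23, adjusted p = 0.168). In cKO neither Fasn (0.03 ± 0.11, adjusted p = 0.843) nor Acaca (0.09 ± 0.11, adjusted p = 0.526) passed. The change of Fasn in cKO was 0.44 with GC and length offsets (adjusted p = 0.00133) and -0.01 under upper-quartile normalization. The interaction of Fasn did not pass (0.42 ± 0.15, adjusted p = 0.0527). It passed under the DESeq2 Wald test (adjusted p = 0.036), with those offsets (adjusted p = 0.0345) and with fasted replicates 3 to 5 alone (0.57). It also passed without replicate 1 or 2 of fasted WT or 3 or 4 of fasted cKO (adjusted p from 0.0129 to 0.0473).

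Among the elongases and desaturases of long chains, Elovl5 rose on fasting in cKO (0.26 ± 0.07, adjusted p = 0.00292) and did not pass in WT (0.04 ± 0.07, adjusted p = 0.65), with an interaction that did not pass (0.22 ± 0.10, adjusted p = 0.135; adjusted p = 0.0447 without replicate 2 of fed cKO). Elovl6, which extends palmitate to stearate, rose in WT (0.25 ± 0.10, adjusted p = 0.0283) and in cKO (0.28 ± 0.10, adjusted p = 0.0163). The first call was lost without replicate 2 or 3 of fed WT or 3 or 5 of fasted WT (adjusted p from 0.0514 to 0.138), the second without replicate 1 or 2 of fasted cKO (adjusted p = 0.0688 and 0.0663). With fasted replicates 1 and 2 alone the change in WT was 0.06 (adjusted p = 0.637). With fasted replicates 3 to 5 alone the change in cKO was 0.11 (adjusted p = 0.282). Fads2, a delta-6 desaturase at 1.73 to 2.34 CPM in fed cKO, fell in cKO to 1.00, 0.506, 0.463, 0.908 and 0.478 CPM (-1.47 ± 0.38, adjusted p = 0.00195), values that rest on few counts. Fads1, its delta-5 counterpart, did not pass in any comparison.

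**Figure D4:**
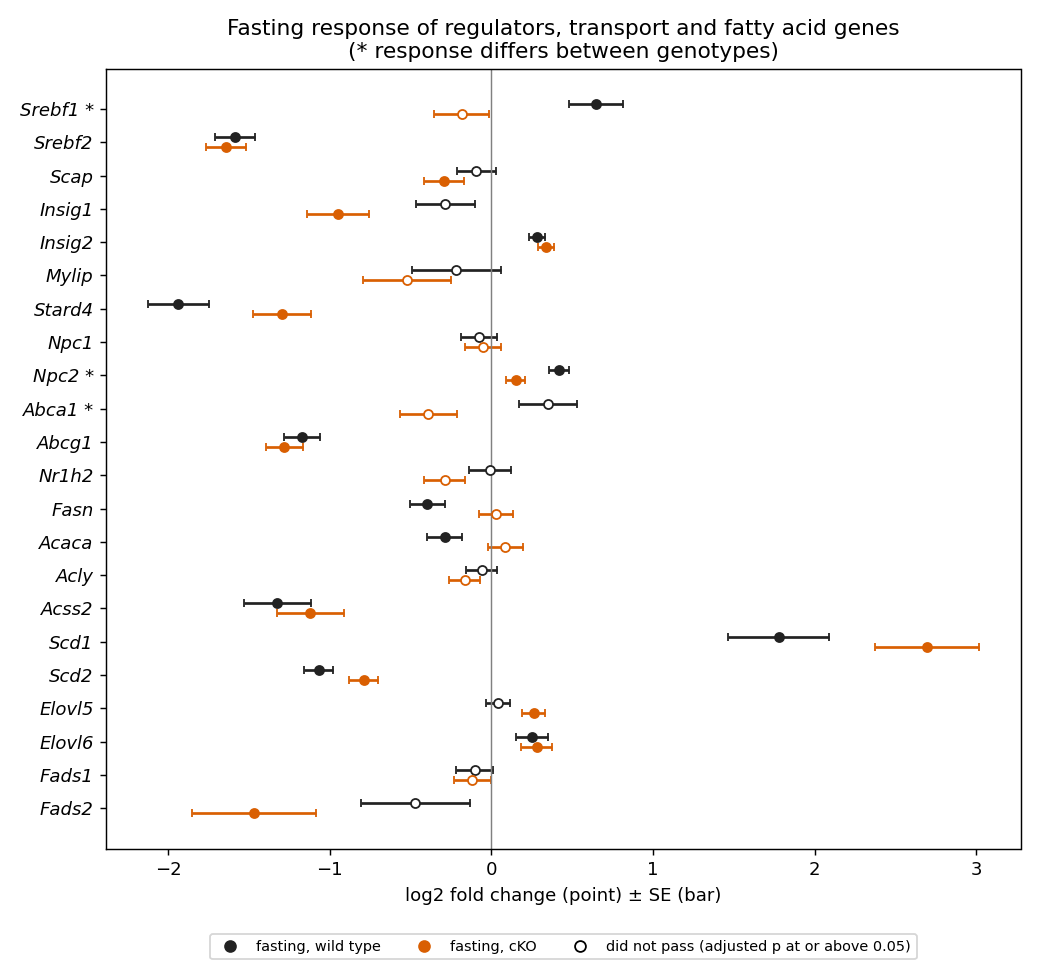
Log2 fold change on fasting (x axis, points, ± SE as bars, 5 libraries per group) of the tested SREBP regulators, sterol transport genes and fatty acid genes (y axis) in wild type and cKO. Srebf2 lies at -1.58 and -1.64, Scd1 at 1.78 and 2.69, and Srebf1 at 0.65 and -0.18.

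In fed neurons the share of these genes that differed between the genotypes was near that of all genes. Of 41 tested members 3 were higher in cKO, 1 was lower and 37 did not pass (edgeR), beside 9.68% of all tested genes called (5.87% higher and 3.81% lower). The lower one was Mvd, at 24.7 ± 1.44 CPM in WT against 16.4 ± 2.57 CPM in cKO, without overlap (-0.59 ± 0.14, adjusted p = 0.00531). The higher ones were Abca1, which read 15.5, 15.5, 18.1, 20.3 and 14.4 CPM in fed cKO, above all fed WT libraries (0.65 ± 0.17, adjusted p = 0.0169), Npc2, which read 202, 219, 229.9, 221 and 208 CPM in fed cKO (0.27 ± 0.06, adjusted p = 0.00318), and Elovl5, an elongase of polyunsaturated fatty acids that read 89.1, 88.3, 84.6, 85.2 and 97.4 CPM in WT and 91.5, 124, 107, 108 and 99.8 CPM in cKO (0.25 ± 0.07, adjusted p = 0.0225). The call of Abca1 was lost without replicate 4 of fed cKO (adjusted p = 0.0581) and that of Elovl5 without replicate 3 or 4 of fed WT or 2 of fed cKO (adjusted p from 0.0606 to 0.0995). When only the 2 fed groups entered the fit, 5 members were called higher and 7 lower, beside 22.8% of all genes tested in that fit. The lower ones were Fasn, Hmgcs1, Sqle, Acat2, Scd2, Msmo1 and Mvd. Without replicate 1 of fed cKO, or without replicate 2 of fasted cKO, 2 members were lower.

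In fasted neurons 11 members were higher in cKO, 3 were lower and 27 did not pass, beside 20.3% of all tested genes called (11.5% higher and 8.84% lower). Over all genes the split depended on scaling, with 1517 higher and 1170 lower here and 1232 higher and 1575 lower under upper-quartile normalization. With all libraries the 8 sterol enzymes that differed were higher in cKO, with a median of 0.15 over the 19 (0.26 without replicate 1 of fasted WT or 4 of fasted cKO). They were Hmgcs1 (0.87 ± 0.10, adjusted p = 7.83e-07), Idi1 (0.73 ± 0.16, adjusted p = 0.00226), Sqle (0.61 ± 0.11, adjusted p = 0.000337), Cyp51 (0.54 ± 0.08, adjusted p = 4.93e-05), Msmo1 (0.44 ± 0.09, adjusted p = 0.00108), Sc5d (0.43 ± 0.08, adjusted p = 0.000386), Fdft1 (0.41 ± 0.07, adjusted p = 7.28e-05) and Pmvk (0.32 ± 0.06, adjusted p = 0.000385). Pmvk read 121, 109.9, 117, 110.0 and 112 CPM in fasted WT and 130.2, 158, 141, 143 and 140.4 CPM in fasted cKO. Hmgcs1, Fdft1, Cyp51 and Pmvk had no overlap of the fasted libraries of the 2 genotypes. The Cyp51 ranges came close, at up to 75.6 CPM in fasted WT and from 78.6 CPM in fasted cKO. How many of all tested genes lacked overlap was not counted. With fasted replicates 1 and 2 alone Idi1 (adjusted p = 0.122), Msmo1 (0.07, adjusted p = 0.685) and Sc5d (adjusted p = 0.17) did not pass. Some alternatives called sterol enzymes lower in fasted cKO. These were Mvd without replicate 5 of fasted cKO (-0.49, adjusted p = 0.0301), Nsdhl with fasted replicates 1 and 2 alone (-0.56, adjusted p = 0.0485) and Ggps1 without replicate 2 of fasted WT (-0.19, adjusted p = 0.0384), with fasted replicates 3 to 5 alone (-0.20, adjusted p = 0.0407) and with GC and length offsets (-0.21, adjusted p = 0.0494). Ebp was called higher without replicate 2 of fasted WT (0.37, adjusted p = 0.00478), without replicate 5 of fasted cKO (0.32, adjusted p = 0.0283) and with fasted replicates 3 to 5 alone (0.32, adjusted p = 0.00742). This comparison uses the same fasted libraries as the fasting responses above and is not separate evidence of them.

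The lower genes in fasted cKO were Srebf1 (-0.61 ± 0.17, adjusted p = 0.0126), Insig1 (-0.68 ± 0.19, adjusted p = 0.014) and Fads2 (-1.24 ± 0.40, adjusted p = 0.0264). Their number was 1 without replicate 4 of fasted WT and 5 without replicate 2 of fasted WT. Srebf1 and Insig1 lost their calls when only the fasted groups entered the fit (adjusted p = 0.061 and 0.0637), Insig1 also without replicate 4 of fasted WT (adjusted p = 0.0564). Fads2 read 2.104, 0.904, 2.06, 2.03 and 0.883 CPM in fasted WT, which overlapped fasted cKO, and lost its call without replicate 1, 3 or 4 of fasted WT or 2, 3 or 5 of fasted cKO (adjusted p from 0.0568 to 0.0735). The other higher genes were Stard4 (0.68 ± 0.20, adjusted p = 0.0176), Elovl5 (0.48 ± 0.07, adjusted p = 4.44e-05) and Elovl6 (0.27 ± 0.10, adjusted p = 0.0497). Stard4 lost its call without replicate 4 of fasted WT or 3 of fasted cKO (adjusted p = 0.0587 and 0.084) and when only the fasted groups entered the fit (adjusted p = 0.108). With fasted replicates 1 and 2 alone Stard4 (0.69, adjusted p = 0.109), Insig1 (-0.56, adjusted p = 0.114) and Fads2 (-0.99, adjusted p = 0.356) did not pass. Elovl6 read 45.5, 38.4, 57.7, 46.1 and 49.4 CPM in fasted WT and 67.6, 66.9, 50.1, 50.7 and 51.5 CPM in fasted cKO, with replicates 1 and 2 of cKO highest. It lost its call without any 1 of 16 libraries (all 10 fed ones, replicates 1, 2, 4 and 5 of fasted WT and 1 and 2 of fasted cKO, adjusted p from 0.0531 to 0.162) and was -0.02 with fasted replicates 3 to 5 alone. Elovl5 read 97.3, 89.0, 83.8, 92.5 and 94.7 CPM in fasted WT and 137, 136, 120.4, 119 and 123 CPM in fasted cKO, without overlap. Of 4 markers of the neighbouring Pomc neurons 2 were higher in fasted cKO, beside 11.5% of all tested genes. The summed level of these markers was 460 to 1120 CPM there against 403 to 500 CPM in fasted WT, with no marker at 0. Their part in these differences was not tested.

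**Figure D5:**
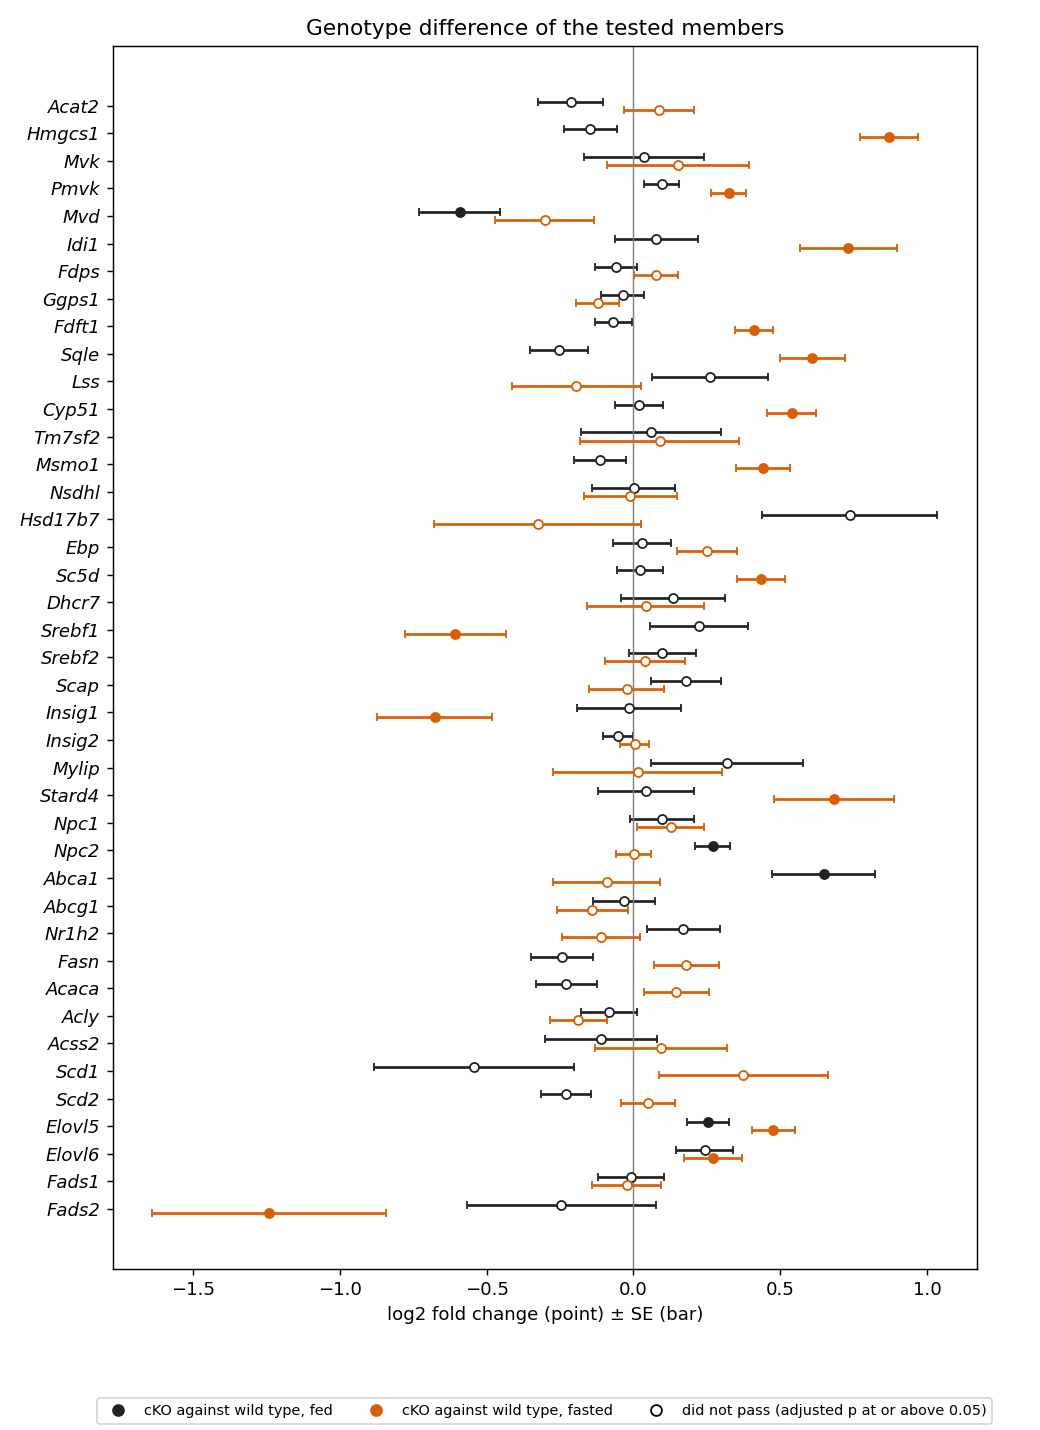
Log2 fold change of cKO against wild type (x axis, points, ± SE as bars, 5 libraries per group) of the 41 tested members (y axis) in fed and in fasted neurons. Hmgcs1 lies at -0.15 when fed and 0.87 when fasted, and 4 members pass when fed against 14 when fasted.

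A further 65 genes of the same pathways, of which 63 were tested, give the setting. On fasting in WT 19 of them rose, 22 fell and 22 did not pass (median -0.04), beside 29.6% of all tested genes risen and 31.3% fallen. In cKO 21 rose, 20 fell and 22 did not pass, beside 26.0% of all tested genes risen and 27.0% fallen. The same shares stand beside the fasting counts of the separate lists below. Among other sterol and isoprenoid enzymes, 6 of 13 rose and 5 fell in WT. Rabggtb (0.60 ± 0.06, adjusted p = 2.83e-09) and Rabggta (-0.66 ± 0.10, adjusted p = 1.23e-06), the 2 subunits of the enzyme that prenylates Rab proteins, moved in opposite directions. Fnta, a subunit of farnesyl and geranylgeranyl transferases, fell in WT (-0.42 ± 0.06, adjusted p = 2.77e-07) with a positive interaction (0.48 ± 0.08, adjusted p = 0.000122). This was the 1 interaction call among the 13, beside 17.3% of all tested genes called (8.87% positive). Nus1, of the enzyme that makes dolichol precursors, rose (0.56 ± 0.07, adjusted p = 2.13e-07).

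Of 10 other genes that act on SREBP processing, 4 rose and 2 fell in WT and 4 rose and 3 fell in cKO. Mbtps1, the site-1 protease that cuts SREBPs, fell on fasting in cKO (-0.59 ± 0.09, adjusted p = 2.23e-06) and had a negative interaction (-0.51 ± 0.12, adjusted p = 0.00438). Fbxw7, whose ligase removes nuclear SREBPs, fell in WT (-0.36 ± 0.06, adjusted p = 2.54e-05), and Ubxn4, a factor of protein removal from the endoplasmic reticulum, rose (0.48 ± 0.07, adjusted p = 4.9e-07). Of 16 tested genes of sterol uptake, storage and turnover 7 fell and 2 rose in WT. Lipa, the lysosomal lipase that frees cholesterol from its esters, fell (-1.35 ± 0.16, adjusted p = 3.85e-08), as did Cyp46a1, the neuronal hydroxylase that turns cholesterol into an exported oxysterol (-0.70 ± 0.10, adjusted p = 5.63e-07), and the transporter Abca2 (-0.74 ± 0.11, adjusted p = 1.84e-06). Vldlr, a lipoprotein receptor, had a positive interaction (0.76 ± 0.20, adjusted p = 0.00886), and Nceh1, a cholesterol ester hydrolase, a negative one (-0.49 ± 0.10, adjusted p = 0.00115).

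Of 24 tested other genes of fatty acid synthesis and activation, 7 rose and 8 fell in WT, and 10 rose and 5 fell in cKO. The reductases Hsd17b12 (1.24 ± 0.06, adjusted p = 1.88e-16) and Tecr (0.40 ± 0.04, adjusted p = 1.78e-09) and the dehydratase Hacd3 (0.45 ± 0.05, adjusted p = 5.21e-09), which act in chain elongation, rose in WT. Mid1ip1, an activator of acetyl-CoA carboxylase, fell in WT (-1.25 ± 0.14, adjusted p = 1.87e-08), and the mitochondrial citrate carrier Slc25a1 fell in cKO (-0.68 ± 0.07, adjusted p = 9.99e-09). Me1, malic enzyme, which makes NADPH for synthesis, had a positive interaction (0.65 ± 0.10, adjusted p = 5.93e-05), Hsd17b12 a negative one (-0.41 ± 0.08, adjusted p = 0.000627) and Hacd2 a positive one (0.47 ± 0.14, adjusted p = 0.0171). The genes named from these lists are among the 4 with the smallest p in each list and comparison.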

How the data were processed

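Libraries were made with a SMART-Seq v4 kit and Nextera XT, which do not mark strand, per the labels' protocols. Per the submitters' processing notes, the tools were Trimmomatic 0.36, HISAT2 2.1.0, featureCounts (Subread 1.6.2) and DESeq2 1.20.0, on GRCm38 (mm10). The authors deposited a table of raw read counts and one of normalized signal. The latter equals each count divided by 1 factor per library (largest relative deviation 1.1e-09) and was not tested. Names matched GENCODE M21 for 22071 of 23129 rows.

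Counts were tested with edgeR 4.0.16 (R 4.3.3; limma 3.58.1 as its base): TMM normalization, minimum count 10 and minimum total 15, which left 13237 genes, 4 group means over 20 libraries, the quasi-likelihood test and Benjamini-Hochberg adjustment over all tested genes, with a threshold of 0.05. The model was run on simulated counts with known changes. These held no split of the fasted replicates, so they do not test the model under that split. DESeq2 1.42.0 was an alternative. Replicate libraries differed by more than counting noise (chi-square per degree of freedom 3.36 to 24.3). All members were open to naming, with the values of every library for up to 4 per role and comparison, and up to 4 genes of each other list. Members and lists were chosen with earlier results of these data known. The other lists hold genes that are counted but not named.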

Additional observations from a re-analysis of the deposited data

Results flagged for a closer look

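The fasting response differed between genotypes by the interaction test for 10 members. The value was positive for Hmgcs1 (1.02), Sqle (0.86), Idi1 (0.65), Msmo1 (0.56), Cyp51 (0.52), Fdft1 (0.48) and Sc5d (0.41), and negative for Srebf1 (-0.83), Abca1 (-0.74) and Npc2 (-0.27). Hmgcs1, Fdft1, Sqle, Cyp51 and Srebf1 kept this call under every alternative run.

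In 10 of 164 groups of 5 libraries 1 library lay far from the others by Dixon's test, which chance gives in about 1 in 20 groups. High libraries were Acat2 in fed WT replicate 4 (118.1 CPM), Hmgcs1 in fasted WT replicate 1 (59.6 CPM), Mvd in fasted cKO replicate 5 (9.07 CPM), Tm7sf2 in fasted cKO replicate 3 (6.72 CPM), Hsd17b7 in fasted cKO replicate 4 (4.54 CPM), Abcg1 in fed WT replicate 3 (37.8 CPM), Acaca in fed WT replicate 1 (28.4 CPM) and Fads2 in fed cKO replicate 2 (2.34 CPM). Low ones were Insig1 in fed cKO replicate 3 (17.4 CPM) and Acly in fed cKO replicate 5 (105.5 CPM).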

How the results depend on the processing

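Each result was recomputed under DESeq2 size factors, upper-quartile normalization, 2 other filters, the DESeq2 Wald test, offsets for GC content and length, fits of only the groups compared, fasted replicates 1 and 2 or 3 to 5 alone, and without each library. The calls of 22 of 28 members held under every alternative for fasting in WT, 24 of 30 for fasting in cKO, 2 of 4 for genotype in fed, 6 of 14 for genotype in fasted neurons and 5 of 10 for the interaction. The fit of only the groups compared was not run for the interaction, which needs all 4. Low genes such as Fads2, Scd1 and Mvk rest on few counts. The causes of the changes below were not tested.

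With GC and length offsets the median log2 fold change of the sterol enzymes was -0.77 on fasting in WT (-0.88 before), that of fatty acid synthesis -0.01 in WT (-0.20) and 0.11 in cKO (-0.04), 2 members in place of 1 were lower in fed cKO, and Srebf1 was 0.23 on fasting in cKO. With fasted replicates 1 and 2 alone the sterol enzyme median on fasting in cKO was -1.0, 5 members were higher and 5 lower in fed cKO, 7 were higher in fasted cKO, and the fatty acid median there was 0.00. The log2 fold change was then 0.06 for Hsd17b7 on fasting in WT, and the interaction 0.09 for Dhcr7, -0.02 for Fdps and 0.08 for Srebf2. With replicates 3 to 5 alone the sterol enzyme median was -0.60 on fasting in cKO and 0.32 between genotypes in fasted neurons, 5 members were higher and 5 lower in fed cKO, 5 lower in fasted cKO, and 12 had a positive interaction. On fasting in cKO Sc5d was then 0.08 and Srebf1 0.07, Elovl6 was -0.02 between genotypes in fasted neurons, and the Nsdhl interaction was 0.27. With only the groups compared, 5 members were higher and 7 lower in fed cKO, and 0 were lower in fasted cKO by edgeR (2 at an unadjusted p under 0.05), where 9 were higher.

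Without single libraries, 5 to 7 members rose and 21 to 22 fell on fasting in WT, 5 to 8 rose and 20 to 23 fell in cKO, 2 to 3 were higher and 1 to 2 lower in fed cKO, 9 to 12 higher and 1 to 5 lower in fasted cKO, and 6 to 9 interactions were positive and 1 to 4 negative. The sterol enzyme median ran from -0.93 to -0.83 on fasting in WT, -0.83 to -0.62 in cKO, -0.04 to 0.02 and 0.12 to 0.26 between genotypes in fed and fasted neurons, and 0.19 to 0.27 for the interaction. The fatty acid median ran from -0.25 to -0.16, -0.06 to -0.01, -0.23 to -0.06, 0.05 to 0.20 and 0.14 to 0.28 in the same order. The sign turned without single libraries for values that had not passed: Sc5d on fasting in cKO (-0.09 to 0.02), and the interaction of Nsdhl (-0.10 to 0.17), Dhcr7 (-0.18 to 0.09) and Srebf2 (-0.11 to 0.04).

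Replicate number was not in the main model. The correlation of same-numbered libraries' deviations ran from 0.0221 to 0.131 between fasted WT and fasted cKO, positive for every replicate number. Between the other pairs of groups it ran from -0.0536 to 0.0368. With replicate number as a block, 6 members rose and 22 fell on fasting in WT, 8 and 23 in cKO, 3 and 1 in fed and 10 and 3 in fasted cKO against WT, and 7 and 3 had an interaction.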
